A study of Mus musculus with 12 samples.

Results

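The genes described here are 35 mouse genes of DNA replication and of the passage from G1 into S phase, from the proteins that mark replication origins to the enzymes that supply nucleotides. They were taken from a list of symbols, and 35 of 35 were found among the 18194 genes measured, each read from its probe set with the highest mean over 12 arrays. The rule for the list uses no measured difference. RNA was measured on Affymetrix expression arrays in A2C12, an established lung tumour line whose mice of origin carried c-myc and c-raf transgenes on the C57BL/6 background. The cells were stained with the DNA dye Hoechst and sorted into a side population (SP), which retains little of the dye, and the rest (non-SP). The 4 groups, of 3 biological replicates each, were SP cells and non-SP cells given a monoclonal antibody against EpCAM, an adhesion protein of epithelial cells, at 100 µg/ml for 48 h, and SP cells and non-SP cells given none. All 4 groups share the line, both transgenes, the dye at 5 µg/ml for 90 min and the sort, so the replicates are not separate tumours or animals. The SP and non-SP arrays with the same treatment and replicate number are called a pair here, although the labels do not state that they came from 1 culture.

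Before S phase, the origin recognition complex, Cdc6 and Cdt1 load the MCM helicase onto origins, a step known as licensing. Cyclin E with its kinase and the E2F transcription factors then carry the cell into S phase, where Cdc45, the GINS complex and Mcm10 start the helicase and the polymerases copy the DNA behind it. Many genes of this machinery are transcribed in a wave around the G1/S boundary under E2F control, and in a mixed population their transcripts are commonly read as a sign of cycling cells. In bulk RNA such as this, fewer cells in S phase and less RNA per cell cannot be told apart.

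Promoter sequences from RefSeq (build GRCm38.p6, 250 bases before to 50 bases after each start site) were available for 30 of the 35 genes. The E2F-type motifs TTTCCCGC and TTTGGCGC were searched on both strands. At least 1 match stood in a promoter of 10 of these 30 genes (33.3%), against 486 of 27018 genes in the whole table (1.8%). The 10 genes were Mcm3, Mcm5, Mcm6, Mcm7, Cdc6, Cdt1, Pola1, Pold1, Rfc3 and Dnmt1. The promoters of 4 MCM genes are printed as examples of these matches within 1 complex. Of the 7 genes that followed the sign of the list's median difference in all 6 pairs of arrays, as described further on, 4 had a match, 2 (Rrm1 and Slbp) had a promoter without one, and Mcm4 had no promoter in the table, while the other 6 genes with a match did not follow it. They lie at chr1:20820263-20820562 (minus strand) for Mcm3, chr8:75109259-75109558 (plus strand) for Mcm5, chr1:128359656-128359955 (minus strand) for Mcm6 and chr5:138171834-138172133 (minus strand) for Mcm7. Each is written 5′ to 3′ on the strand of its gene, and capitals mark the motif matches, none of which overlap.
Mcm3: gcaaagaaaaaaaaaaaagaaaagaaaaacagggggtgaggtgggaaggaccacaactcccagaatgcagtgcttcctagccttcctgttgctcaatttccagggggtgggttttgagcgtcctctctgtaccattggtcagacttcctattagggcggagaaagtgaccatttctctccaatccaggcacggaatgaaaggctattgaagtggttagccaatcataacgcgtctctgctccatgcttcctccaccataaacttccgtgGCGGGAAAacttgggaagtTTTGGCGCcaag
Mcm5: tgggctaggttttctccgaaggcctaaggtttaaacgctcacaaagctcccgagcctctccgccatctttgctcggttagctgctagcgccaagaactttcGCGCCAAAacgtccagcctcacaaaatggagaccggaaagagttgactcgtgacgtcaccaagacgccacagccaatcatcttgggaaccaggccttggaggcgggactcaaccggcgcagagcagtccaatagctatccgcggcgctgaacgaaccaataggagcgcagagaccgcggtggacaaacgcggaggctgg
Mcm6: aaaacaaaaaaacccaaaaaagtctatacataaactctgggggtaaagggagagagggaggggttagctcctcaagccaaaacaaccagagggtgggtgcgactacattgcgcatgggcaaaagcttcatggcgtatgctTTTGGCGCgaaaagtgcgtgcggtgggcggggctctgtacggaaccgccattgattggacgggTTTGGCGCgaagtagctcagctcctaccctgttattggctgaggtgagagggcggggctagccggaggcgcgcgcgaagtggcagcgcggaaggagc
Mcm7: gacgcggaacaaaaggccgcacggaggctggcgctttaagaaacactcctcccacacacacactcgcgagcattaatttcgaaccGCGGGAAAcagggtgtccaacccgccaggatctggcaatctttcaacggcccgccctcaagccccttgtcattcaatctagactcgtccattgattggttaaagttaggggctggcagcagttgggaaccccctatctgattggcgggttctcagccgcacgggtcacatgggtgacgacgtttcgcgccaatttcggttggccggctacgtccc
With 0 for the start site, the matches begin at 19 and 38 in Mcm3, at -149 in Mcm5, at -110 and -47 in Mcm6 and at -165 in Mcm7. Mcm7 has another promoter in the table without a match. A match describes the letters only, and binding was not measured.

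Mean levels of the 35 genes over the 12 arrays ran from 5.32 log2 units for Tyms to 13.4 for Pcna. The values are log2 levels normalised by RMA, the robust multi-array average, and array medians lay between 5.72 and 6.06. Each gene spanned 0.50 to 2.00 log2 units over the 12 arrays, with a median span of 0.99. SP anti-EpCAM replicate 2 stood apart from the other arrays. It was the lowest array for 25 of the 35 genes (71.4%) and for 20.2% of all genes. Signals from the 3′ ends of the control transcripts exceeded those from the 5′ ends by 1.03 for actin and 0.50 for Gapdh on that array, and by 0.90 and 0.46 on its non-SP partner. On the other 10 arrays these excesses were 0.18 to 0.73 for actin and -0.03 to 0.23 for Gapdh, and the part of this measure in the results was not tested. Of the lung epithelial markers, Krt19 averaged 11.7, Krt8 8.77 and Epcam 8.11, while Sftpc averaged 5.64 and Nkx2-1 5.55, below the lowest array median. Of the fibroblast markers, Col1a2, Col3a1, Col1a1 and Pdgfrb averaged 12.6, 12.3, 11.5 and 10.5. Pdgfra averaged 9.59 and Dcn 9.27, while Lum averaged 4.15, below the lowest array median. Of the macrophage markers, Csf1r averaged 9.98, Cd14 8.94, Cd68 7.33, Lyz2 6.22 and Fcgr1 5.96. Adgre1 averaged 4.67, Itgam 3.87 and Ptprc 3.42, below the lowest array median. The table carries no detection calls, so absence cannot be stated from it.

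**Figure D1:**
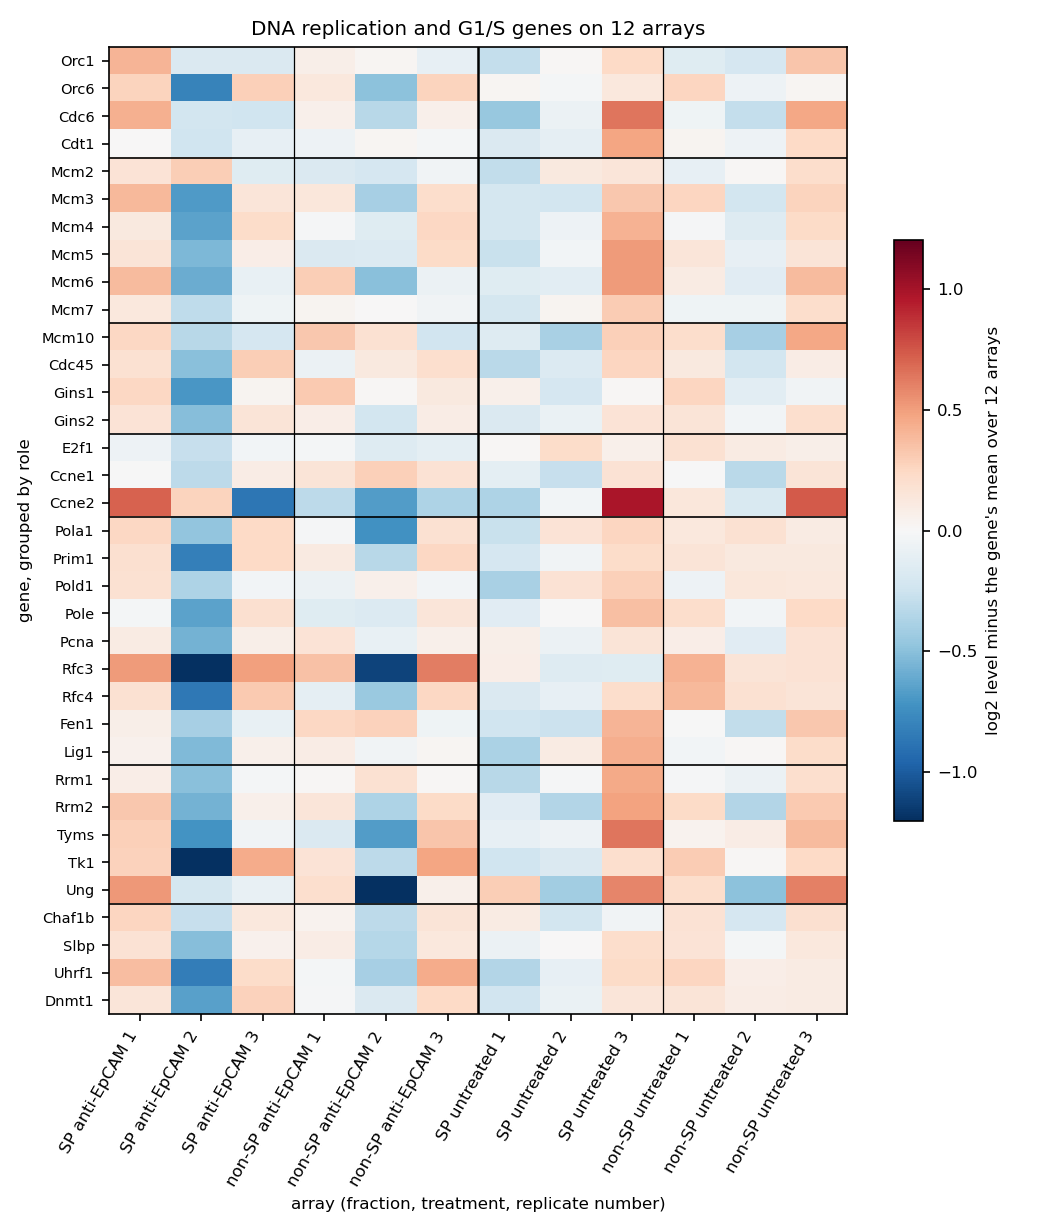
Each row is 1 of the 35 genes, grouped by role, and each column is 1 of the 12 arrays. Colour gives the log2 level minus the gene's mean over the 12 arrays, so each row is centred on 0. SP anti-EpCAM replicate 2 is lowest for 25 of the 35 genes, and SP untreated replicate 3 is highest for 16.

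The comparison of SP with non-SP cells asks whether the dye-excluding cells differ in their replication transcripts. Within pairs, most of the 35 genes lay on the same side, but the side changed from pair to pair. In untreated pair 1, the SP array was lower for 34 of 35 genes and higher for 1, with a median difference (SP minus non-SP) of -0.33. Of all genes, 44.3% were lower and 53.4% higher there. The only gene higher in that SP array was Ung, a uracil-DNA glycosylase that clears uracil from DNA. In anti-EpCAM pair 2, SP was lower for 29 genes (all genes 60.5%), with a median of -0.31. In anti-EpCAM pair 1 it was instead higher for 28 genes (all genes 43.8%), with a median of 0.15, and in untreated pair 3 for 25 genes (all genes 50.4%, and 46.7% lower), with a median of 0.10. The other pairs were closer to 0. SP was lower for 23 genes in anti-EpCAM pair 3 (all genes 43.4%, and 53.1% higher; median -0.03) and higher for 22 in untreated pair 2 (all genes 49.0%; median 0.02). Over the 6 pairs the medians averaged -0.07 ± 0.21 (SD, n = 6), so the mean was smaller than the spread between pairs. Medians of all 18194 genes in the same pairs ran from -0.10 to 0.02.

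**Figure D2:**
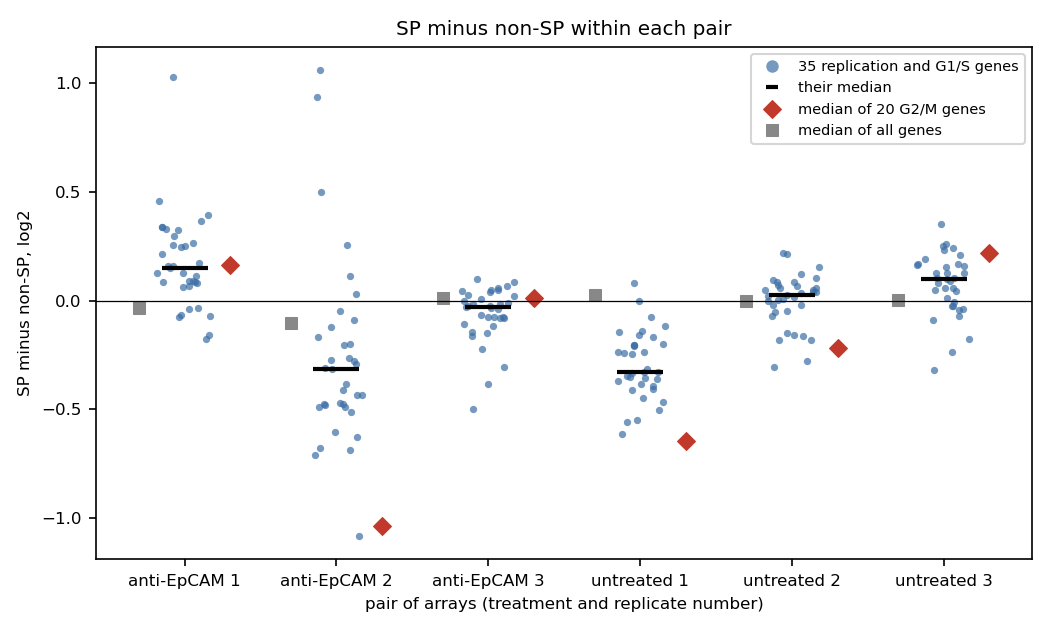
SP minus non-SP in log2 units (vertical axis) for each of the 6 pairs (horizontal axis). Blue points are the 35 genes, black bars their medians, red diamonds the medians of 20 G2/M genes and grey squares the medians of all genes. The 35 genes sit mostly below 0 in untreated pair 1 and anti-EpCAM pair 2 and mostly above 0 in anti-EpCAM pair 1 and untreated pair 3.

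Another 54 measured genes of replication and G1/S, among them the remaining subunits of the origin recognition complex, replication protein A and GINS, had pair medians of 0.14, -0.19 and -0.02 with the antibody and -0.25, -0.0009 and 0.04 without it, in the order of replicates 1 to 3. In untreated pair 1, 49 of these 54 were lower in SP, and in anti-EpCAM pair 2, 41 were. The 20 measured genes of G2 and mitosis, such as Plk1 and Ccnb2, had medians of 0.16, -1.03 and 0.01 with the antibody and -0.64, -0.22 and 0.22 without it. All 20 were lower in SP in anti-EpCAM pair 2, untreated pair 1 and untreated pair 2, where the 35 replication genes had medians of -0.31, -0.33 and 0.02. Cell type markers also differed within pairs. Of 8 macrophage markers, 7 were lower in SP in anti-EpCAM pair 1 (median -0.18, and 54.3% of all genes) and in untreated pair 3 (median -0.24, and 46.7% of all genes). In anti-EpCAM pair 3 and untreated pairs 1 and 2, 5 of the 8 were higher. In anti-EpCAM pair 1, 6 of 7 fibroblast markers were higher in SP (median 0.14, and 43.8% of all genes). In untreated pair 1, 5 of 7 fibroblast markers were lower in SP (median -0.35, and 44.3% of all genes). There 5 of 5 endothelial markers were higher (median 0.37, and 53.4% of all genes). Over the 12 arrays, Pecam1 averaged 4.55, Cdh5 4.74, Tek 4.50 and Emcn 4.17, below the lowest array median of 5.72, and Kdr averaged 6.70. The endothelial differences in every pair thus rest mostly on low signals. In anti-EpCAM pair 2, 8 of 10 lung epithelial markers (median -0.33) and 4 of 5 endothelial markers (median -0.26) were lower in SP, against 60.5% of all genes. In anti-EpCAM pair 3, 7 of the 10 lung epithelial markers were higher, and in untreated pairs 1 and 2 they divided 5 against 5. The counts in the remaining pairs are not given. The mean level of the fibroblast list ran from 9.67 to 10.24 in SP anti-EpCAM, 9.79 to 10.07 in non-SP anti-EpCAM, 9.78 to 10.07 in SP untreated and 10.01 to 10.18 in non-SP untreated arrays. That of the lung epithelial list ran from 7.16 to 7.30, 7.06 to 7.30, 7.01 to 7.44 and 7.03 to 7.50 in the same groups, and that of the endothelial list from 4.76 to 5.01, 4.93 to 5.19, 4.73 to 5.06 and 4.75 to 4.94. That of the macrophage list ran from 6.05 to 6.32, 6.01 to 6.49, 6.13 to 6.58 and 6.15 to 6.55. The part of these cell-type transcripts in the pair differences was not tested.

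Divided by role, the genes shared a direction in the pairs with the larger differences, with exceptions. The 6 MCM genes were all higher in SP in anti-EpCAM pair 1 (median 0.19) and all lower in untreated pair 1 (median -0.23), and 5 of 6 were lower in anti-EpCAM pair 2 (median -0.30). The 4 genes that start the helicase, Mcm10, Cdc45, Gins1 and Gins2, were all lower in SP in anti-EpCAM pair 2 (median -0.57) and in untreated pair 1 (median -0.35). Of the 9 polymerase and fork genes, 8 were lower in SP in anti-EpCAM pair 2 (median -0.47) and 9 in untreated pair 1 (median -0.35), while 7 were higher in untreated pair 3 (median 0.10). In anti-EpCAM pair 1, however, 2 of the 3 G1/S control genes were lower in SP (median -0.04). The roles divided in the pairs closer to 0. In anti-EpCAM pair 3 the helicase-starting genes had a median of 0.05 and the nucleotide genes one of -0.15, and in untreated pair 2 the licensing genes had a median of 0.13 and the chromatin genes one of -0.09. The sign of the list's median was followed in all 6 pairs by 7 genes, namely Mcm3, Mcm4, Mcm5, Mcm6, Mcm7, Rrm1 and Slbp (all genes 1.47%), but these genes enter that median, so the count is a description only. Over all 12 arrays, the median SD within a group was 0.29 for the 35 genes and the median SD within a pair was 0.18. For all genes these were 0.27 and 0.15. The SD within a pair was the smaller for 35 of the 35 genes and for 91.1% of all genes.

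No gene of the 35 lay on 1 side in 6 of 6 pairs, a count to set beside 0.786% of all genes lower and 0.682% higher in SP in all 6. In the 3 anti-EpCAM pairs, Gins1, Ccne1 and Fen1 were lower in SP throughout (3 of 35; all genes 11.1%) and Pola1 was higher throughout (1 of 35; all genes 6.56%). In the 3 untreated pairs, Gins2, Rfc3, Tk1 and Chaf1b were lower in SP throughout (4 of 35; all genes 10.3%), and no gene of the 35 was higher throughout (all genes 13.5%). These shares were near or below those of all genes. Gins1, Rfc3 and Tk1 were lower in SP in 5 of 6 pairs and are named for that. The share of all genes that did so was not counted, so no comparison is drawn. An exact two-sided sign-flip permutation test over the 6 pairs, whose smallest possible p is 0.0312, gave 0.0625 for Gins1, 0.0938 for Rfc3 and 0.156 for Tk1, each with an adjusted p over all genes of 0.979.

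Among the origin licensing genes, Orc1 encodes the largest subunit of the origin recognition complex. Orc1 stood at 7.37, 6.78 and 6.78 log2 units in SP anti-EpCAM cells, against 7.03, 6.98 and 6.86 in non-SP anti-EpCAM cells. Without the antibody, Orc1 stood at 6.67, 6.97 and 7.19 in SP cells, against 6.81, 6.75 and 7.28 in non-SP cells. The 4 groups overlapped, and no group was apart. Cdc6 is the ATPase that brings the helicase loader to the origin. Cdc6 stood at 9.53, 8.88 and 8.86 log2 units in SP anti-EpCAM cells, against 9.16, 8.77 and 9.17 in non-SP anti-EpCAM cells. Without the antibody, Cdc6 stood at 8.65, 9.03 and 9.74 in SP cells, against 9.05, 8.82 and 9.57 in non-SP cells. SP untreated replicate 3 was the highest of the 12 arrays and SP untreated replicate 1 the lowest, so that 1 group held both ends. Its means were 9.09 ± 0.38 in SP anti-EpCAM, 9.03 ± 0.23 in non-SP anti-EpCAM, 9.14 ± 0.55 in SP untreated and 9.15 ± 0.39 in non-SP untreated cells (SD, n = 3 each). Cdt1 works with Cdc6 in licensing and is held back by geminin. Cdt1 stood at 11.63, 11.39 and 11.53 log2 units in SP anti-EpCAM cells, against 11.56, 11.65 and 11.60 in non-SP anti-EpCAM cells. Without the antibody, Cdt1 stood at 11.46, 11.52 and 12.10 in SP cells, against 11.67, 11.57 and 11.87 in non-SP cells. SP untreated replicate 3 was again the highest array, and the groups overlapped. Orc6, the smallest subunit of the same complex, ran from 9.06 to 10.16 over the 12 arrays.

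The MCM genes encode the 6 subunits of the replicative helicase. Mcm5 stood at 11.76, 11.06 and 11.69 log2 units in SP anti-EpCAM cells, against 11.43, 11.45 and 11.83 in non-SP anti-EpCAM cells. Without the antibody, Mcm5 stood at 11.34, 11.57 and 12.12 in SP cells, against 11.75, 11.51 and 11.76 in non-SP cells. The highest array was SP untreated replicate 3 and the lowest SP anti-EpCAM replicate 2, and SP overlapped non-SP under both treatments. The differences within pairs were 0.33, -0.38 and -0.14 with the antibody and -0.41, 0.06 and 0.35 without it, thus 3 above and 3 below 0. Mcm2 stood at 10.63, 10.76 and 10.32 log2 units in SP anti-EpCAM cells, against 10.30, 10.26 and 10.43 in non-SP anti-EpCAM cells. Without the antibody, Mcm2 stood at 10.17, 10.58 and 10.61 in SP cells, against 10.37, 10.48 and 10.68 in non-SP cells. Read from the probe sets used here, Mcm2 differed from the other 5 subunits in anti-EpCAM pair 2. It was higher in SP by 0.50 while the others were lower by 0.09 to 0.49. This contrast depends on the probe set. In that pair the other probe set gave -0.07 for Mcm2 and 1.04 for Mcm4. Those of Mcm6 gave 0.72 and 0.08, and those of Mcm3, Mcm5 and Mcm7 ran from -0.96 to 0.065. Mcm4 stood at 11.88, 11.13 and 11.99 log2 units in SP anti-EpCAM cells, against 11.76, 11.62 and 12.02 in non-SP anti-EpCAM cells. Without the antibody, Mcm4 stood at 11.55, 11.70 and 12.19 in SP cells, against 11.76, 11.61 and 11.99 in non-SP cells. Mcm4 was lowest in SP anti-EpCAM replicate 2 and highest in SP untreated replicate 3. Mcm3 ran from 10.06 to 11.12, Mcm6 from 10.88 to 11.98 and Mcm7 from 12.11 to 12.72 over the 12 arrays, each lowest in SP anti-EpCAM replicate 2.

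Gins1 encodes a subunit of GINS, the complex that joins Cdc45 and the MCM ring in the active helicase. Gins1 stood at 9.97, 9.02 and 9.75 log2 units in SP anti-EpCAM cells, against 10.03, 9.73 and 9.83 in non-SP anti-EpCAM cells. Without the antibody, Gins1 stood at 9.78, 9.52 and 9.73 in SP cells, against 9.98, 9.59 and 9.68 in non-SP cells. SP anti-EpCAM replicate 2 lay lowest at 9.02, and the other 11 arrays lay between 9.52 and 10.03. Over the 12 arrays Gins2 ran from 8.87 to 9.59, Cdc45 from 8.23 to 9.04 and Mcm10, which helps start the helicase, from 8.34 to 9.20.

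E2f1, a transcription factor that drives S-phase genes once the retinoblastoma protein releases it, had the narrowest spread of the 35 genes over the arrays. E2f1 stood at 8.43, 8.21 and 8.45 log2 units in SP anti-EpCAM cells, against 8.46, 8.33 and 8.37 in non-SP anti-EpCAM cells. Without the antibody, E2f1 stood at 8.50, 8.71 and 8.55 in SP cells, against 8.67, 8.59 and 8.55 in non-SP cells. All 6 antibody-treated arrays lay below all 6 untreated arrays (all genes 0.907%), whereas SP and non-SP overlapped under both treatments. The size of this difference depends on the scaling. After centring each array on its median, E2f1 differed between treated and untreated cells by -0.03 in SP and -0.07 in non-SP cells. A further quantile normalisation gave -0.14 and -0.04. Cyclin E1 (Ccne1) activates the kinase that starts S phase. Ccne1 stood at 8.58, 8.27 and 8.67 log2 units in SP anti-EpCAM cells, against 8.73, 8.87 and 8.75 in non-SP anti-EpCAM cells. Without the antibody, Ccne1 stood at 8.46, 8.31 and 8.75 in SP cells, against 8.58, 8.26 and 8.74 in non-SP cells. With the antibody the 3 SP arrays lay below the 3 non-SP arrays (all genes 1.78%), and without it the fractions overlapped. The other probe set of Ccne1, however, was higher in SP in the 3 anti-EpCAM pairs, by 0.04, 0.09 and 0.18. Ccne2 encodes the related cyclin E2. Ccne2 stood at 7.63, 7.18 and 6.04 log2 units in SP anti-EpCAM cells, against 6.60, 6.25 and 6.54 in non-SP anti-EpCAM cells. Without the antibody, Ccne2 stood at 6.55, 6.88 and 7.89 in SP cells, against 7.05, 6.73 and 7.65 in non-SP cells. Within the pairs it was higher in SP by 1.03 and 0.93 in anti-EpCAM pairs 1 and 2 and lower by 0.50 in pair 3. The lowest and the highest SP anti-EpCAM array lay 1.59 log2 units apart, and the group's mean of 6.95 ± 0.82 had a large spread (SD, n = 3).

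Pcna, the sliding clamp that holds polymerases on DNA, was the most constant of the fork genes apart from 1 array. Pcna stood at 13.46, 12.80 and 13.44 log2 units in SP anti-EpCAM cells, against 13.53, 13.28 and 13.43 in non-SP anti-EpCAM cells. Without the antibody, Pcna stood at 13.44, 13.30 and 13.52 in SP cells, against 13.44, 13.23 and 13.54 in non-SP cells. Without SP anti-EpCAM replicate 2, the 11 remaining values lay between 13.23 and 13.54. Rfc4 belongs to the clamp loader that places Pcna. Rfc4 stood at 10.61, 9.57 and 10.74 log2 units in SP anti-EpCAM cells, against 10.32, 9.98 and 10.68 in non-SP anti-EpCAM cells. Without the antibody, Rfc4 stood at 10.25, 10.33 and 10.64 in SP cells, against 10.81, 10.60 and 10.58 in non-SP cells. The lowest value was again that of SP anti-EpCAM replicate 2, and SP overlapped non-SP without the antibody. Fen1 is the flap endonuclease that trims Okazaki fragments. Fen1 stood at 11.34, 10.87 and 11.18 log2 units in SP anti-EpCAM cells, against 11.52, 11.55 and 11.22 in non-SP anti-EpCAM cells. Without the antibody, Fen1 stood at 11.03, 11.02 and 11.68 in SP cells, against 11.27, 10.98 and 11.59 in non-SP cells. SP anti-EpCAM replicate 2 and SP untreated replicate 3 were the lowest and the highest array. In the anti-EpCAM pairs Fen1 differed by -0.17, -0.68 and -0.04, whereas its other probe set (mean 9.91) gave 0.10, -0.67 and 0.14. Rfc3, another clamp loader subunit, is given in full because it was lower in SP in all 3 untreated pairs, a choice made after its values were seen. Rfc3 stood at 9.44, 7.55 and 9.43 log2 units in SP anti-EpCAM cells, against 9.28, 7.82 and 9.55 in non-SP anti-EpCAM cells. Without the antibody, Rfc3 stood at 9.02, 8.78 and 8.79 in SP cells, against 9.35, 9.09 and 9.11 in non-SP cells. Without the antibody the SP arrays lay below the non-SP arrays (all genes 1.13%). The differences were -0.33, -0.31 and -0.32, or -0.46, -0.15 and -0.06 from the other probe set of Rfc3 (mean 8.87). With the antibody, the arrays of pair 2 lay at 7.55 in SP and 7.82 in non-SP cells, against 9.28 to 9.55 over the arrays of pairs 1 and 3. The other fork genes ran from 8.38 to 9.37 (Pola1, polymerase alpha), 10.11 to 11.18 (Prim1, primase), 9.14 to 9.82 (Pold1, polymerase delta), 7.93 to 8.94 (Pole, polymerase epsilon) and 10.40 to 11.36 (Lig1, DNA ligase) over the 12 arrays.

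**Figure D3:**
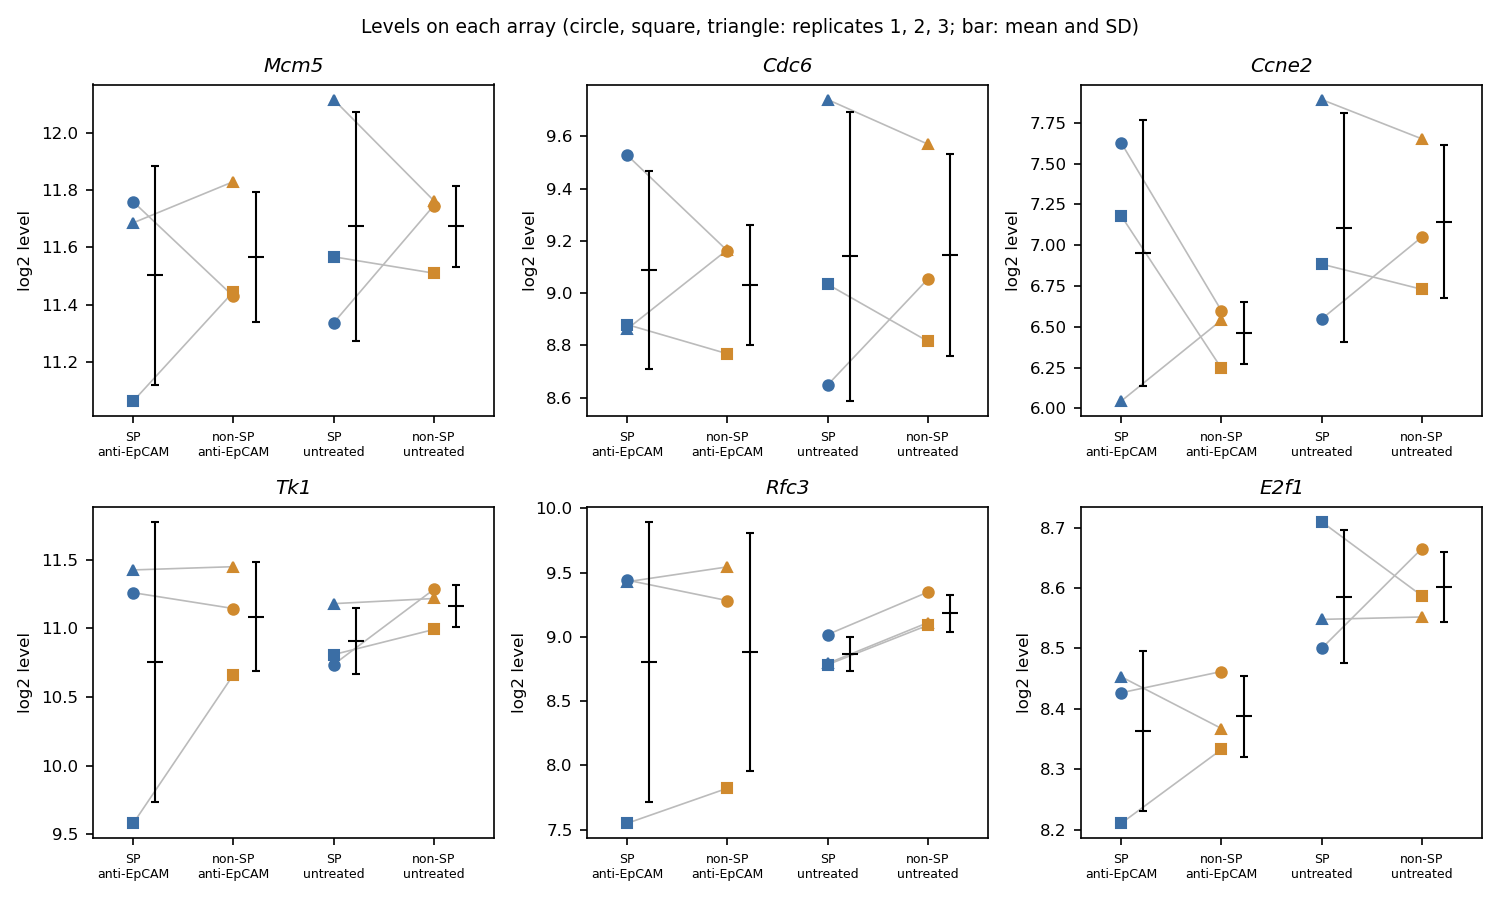
Log2 level (vertical axis) of 6 genes in the 4 groups (horizontal axis). Circles, squares and triangles are replicates 1, 2 and 3, grey lines join the SP and non-SP arrays of a pair, and bars give the group mean and SD. SP and non-SP overlap in these panels except for Rfc3 without the antibody, where SP lies below (all genes 1.13%). For E2f1 the 6 anti-EpCAM arrays lie below the 6 untreated arrays (all genes 0.907%).

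Nucleotides for replication come from ribonucleotide reductase, thymidylate synthase and thymidine kinase. Rrm2 is the regulated subunit of the reductase. Rrm2 stood at 11.81, 10.92 and 11.55 log2 units in SP anti-EpCAM cells, against 11.64, 11.12 and 11.72 in non-SP anti-EpCAM cells. Without the antibody, Rrm2 stood at 11.36, 11.14 and 11.97 in SP cells, against 11.71, 11.14 and 11.80 in non-SP cells. SP untreated replicate 3 was the highest array and SP anti-EpCAM replicate 2 the lowest, with the fractions overlapping. Tyms encodes thymidylate synthase. Tyms stood at 5.60, 4.60 and 5.27 log2 units in SP anti-EpCAM cells, against 5.15, 4.64 and 5.66 in non-SP anti-EpCAM cells. Without the antibody, Tyms stood at 5.22, 5.25 and 5.96 in SP cells, against 5.36, 5.40 and 5.70 in non-SP cells. All 4 probe sets of Tyms were dim, with means of 5.32, 3.86, 3.84 and 3.70, so its differences rest on low signals. Ung stood at 9.11, 8.37 and 8.50 log2 units in SP anti-EpCAM cells, against 8.79, 7.31 and 8.65 in non-SP anti-EpCAM cells. Without the antibody, Ung stood at 8.88, 8.17 and 9.17 in SP cells, against 8.79, 8.09 and 9.19 in non-SP cells. Within anti-EpCAM pair 2 Ung was higher in SP by 1.06, and in the other 5 pairs the differences ran from -0.15 to 0.32. Tk1, thymidine kinase, is also given in full after its values were seen, as it was lower in SP in 5 of 6 pairs. Tk1 stood at 11.26, 9.58 and 11.42 log2 units in SP anti-EpCAM cells, against 11.14, 10.66 and 11.45 in non-SP anti-EpCAM cells. Without the antibody, Tk1 stood at 10.74, 10.81 and 11.18 in SP cells, against 11.28, 10.99 and 11.22 in non-SP cells. Its largest difference, -1.08 in anti-EpCAM pair 2, came with the lowest of the 12 arrays. Rrm1, the large subunit of the reductase, ran from 10.74 to 11.70.

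Of the chromatin genes, Uhrf1 recruits the maintenance methyltransferase Dnmt1 to newly copied DNA. Uhrf1 stood at 11.24, 10.04 and 11.09 log2 units in SP anti-EpCAM cells, against 10.85, 10.47 and 11.31 in non-SP anti-EpCAM cells. Without the antibody, Uhrf1 stood at 10.51, 10.77 and 11.10 in SP cells, against 11.13, 10.95 and 10.97 in non-SP cells. SP was lower by 0.61 in untreated pair 1 and by 0.43 in anti-EpCAM pair 2, and higher by 0.40 in anti-EpCAM pair 1. Slbp binds the stem-loop of histone mRNAs and is needed for histone supply in S phase. Slbp stood at 11.44, 10.75 and 11.31 log2 units in SP anti-EpCAM cells, against 11.35, 10.92 and 11.39 in non-SP anti-EpCAM cells. Without the antibody, Slbp stood at 11.19, 11.27 and 11.48 in SP cells, against 11.43, 11.24 and 11.39 in non-SP cells. The fractions overlapped, and SP anti-EpCAM replicate 2 was the lowest array. Chaf1b is a subunit of the chromatin assembly factor that places histones on new DNA. Chaf1b stood at 8.44, 7.91 and 8.32 log2 units in SP anti-EpCAM cells, against 8.23, 7.88 and 8.34 in non-SP anti-EpCAM cells. Without the antibody, Chaf1b stood at 8.28, 7.97 and 8.15 in SP cells, against 8.36, 7.99 and 8.38 in non-SP cells. Its fractions overlapped under both treatments, although SP was lower in each untreated pair by 0.02 to 0.23. Dnmt1 ran from 10.09 to 11.02.

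In the fit across all genes with limma, no gene of the 35 passed an adjusted p of 0.05 in the comparison of SP with non-SP cells given the antibody, and no gene of the 18194 did (0.0%). At an unadjusted p under 0.05 there were 0 of the 35 and 127 of all genes (0.698%), and with the pair as a block 1 of the 35, Ccne1 (all genes 7.21%). The median difference (SP minus non-SP) was -0.07 over the 35 genes, 27 of them below 0, and -0.03 over all genes, with 57.7% below 0. The highest by moderated t were Mcm2 at 0.24 ± 0.18 and Ccne2 at 0.49 ± 0.40, and the lowest Fen1 at -0.30 ± 0.22 and Ccne1 at -0.28 ± 0.18 (log2 difference ± SE, n = 3 against 3). Ccne1 was the 1 gene of the 35 whose SP arrays all lay below the non-SP arrays (all genes 1.78%), and none lay above (all genes 0.572%). Its other probe set, at a mean of 8.14, gave differences of 0.04, 0.09 and 0.18 in these 3 pairs, opposite in sign to -0.16, -0.60 and -0.08. Without SP anti-EpCAM replicate 2, the median of the 35 genes was 0.16, and without both arrays of pair 2 it was 0.05. For 31 of the 35 genes, and 16988 of all 18194, the 95% interval of the difference lay within 2-fold either way. The median reach over the 35 genes was 0.49 log2 units, or 0.31 with the pair as a block.

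In untreated cells, limma called 0 of the 35 genes and 0 of all genes (0.0%) between SP and non-SP, and an unadjusted p under 0.05 was met by 0 of the 35 and by 4 of all genes (0.022%), or with the pair as a block by 1 of the 35, Rfc3 (all genes 1.68%). The median difference was -0.04 over the 35 genes, 30 of them below 0, and 0.01 over all genes, with 46.3% below 0. Mcm4 at 0.03 ± 0.24 and Ung at 0.04 ± 0.40 had the highest moderated t, and Uhrf1 at -0.22 ± 0.30 and Rfc4 at -0.26 ± 0.28 the lowest. Rfc3 was the 1 gene of the 35 whose SP arrays all lay below the non-SP arrays (all genes 1.13%), at 8.87 ± 0.13 in SP and 9.18 ± 0.14 in non-SP cells (SD, n = 3 each). None lay above (all genes 1.24%). Without both arrays of untreated pair 1, the median of the 35 genes was 0.06. With all arrays, the interval lay within 2-fold for 33 of the 35 genes and for 17557 of all 18194. With both treatments averaged, limma again called 0 of the 35 and 0 of all genes (0.0%), and the unadjusted count was 0 of the 35 and 19 of all genes (0.104%), or with the pair as a block 1 of the 35, again Rfc3 (all genes 2.13%). The median was then -0.06 (28 of the 35 below 0, and 55.8% of all genes). Ung (0.23 ± 0.28) and Ccne2 (0.23 ± 0.29) were highest and Gins1 (-0.18 ± 0.16) and Ccne1 (-0.15 ± 0.13) lowest. The interval lay within 2-fold for 35 of 35 genes and for 18061 of all 18194. Among the other 54 replication genes and the 20 G2/M genes, limma called 0 in each of these comparisons, with 0 at an unadjusted p under 0.05.

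**Figure D4:**
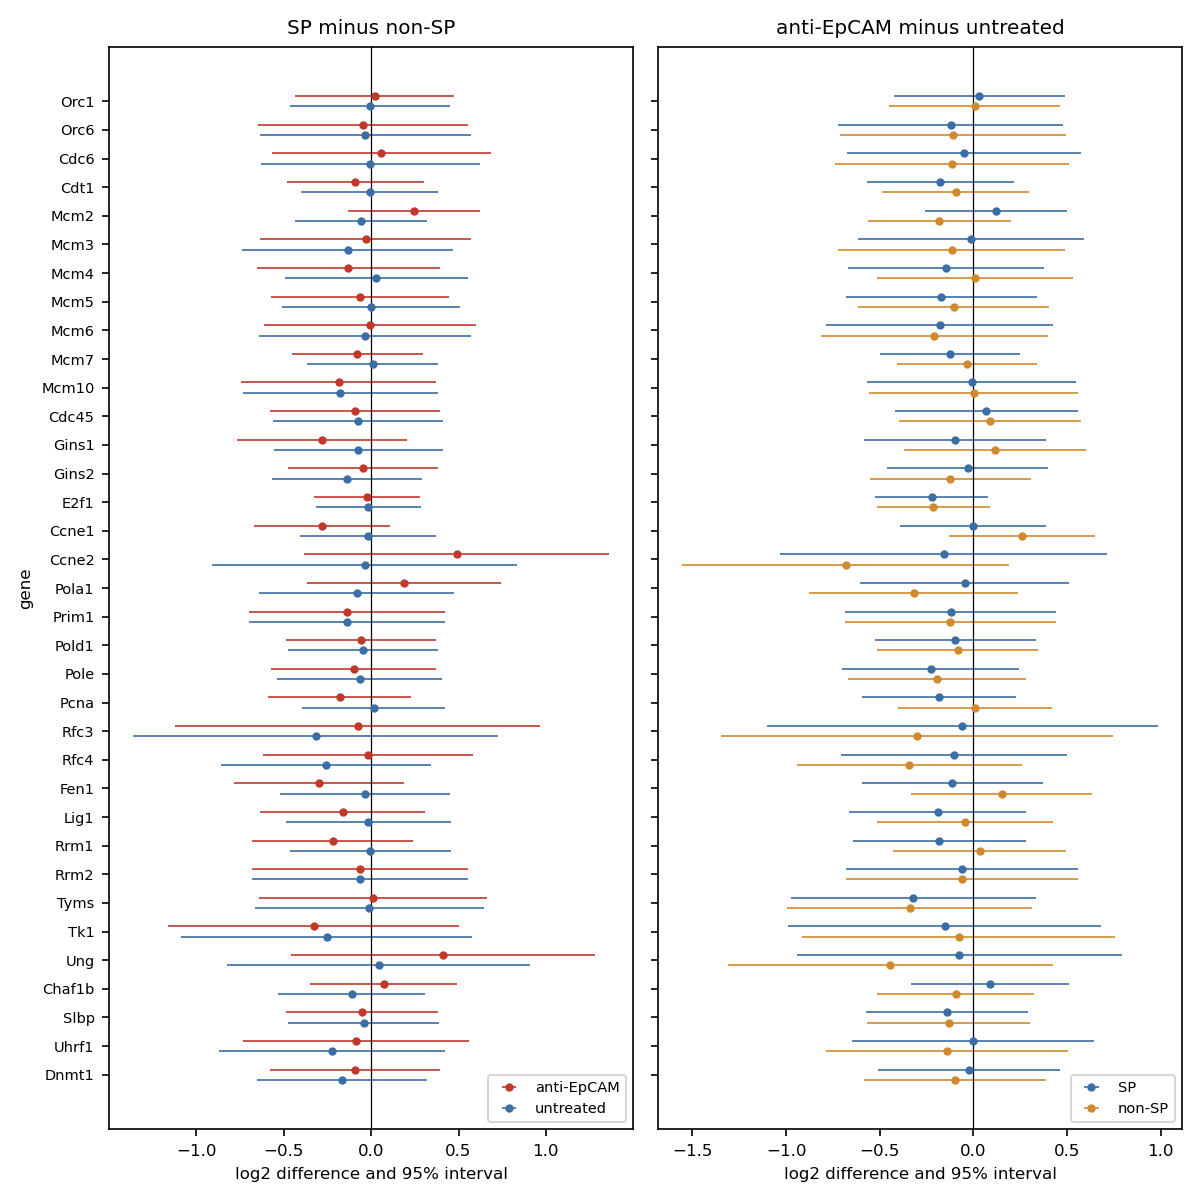
Log2 difference and 95% interval from limma (horizontal axis) for each of the 35 genes (vertical axis). The left panel gives SP minus non-SP with the antibody (red) and without it (blue), and the right panel anti-EpCAM minus untreated in SP (blue) and non-SP cells (orange). All intervals cross 0 in this fit to group means, which does not use the pairs. With the pair as a block, limma gave an unadjusted p under 0.05 for Rfc3 without the antibody and Ccne1 with it. Neither passed the adjustment over all genes.

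The antibody comparison asks whether binding EpCAM altered the replication transcripts of either fraction. In SP cells limma called 0 of the 35 genes and 0 of all genes (0.0%), with 0 of the 35 and 835 of all genes (4.59%) at an unadjusted p under 0.05. With the replicate number as a block the unadjusted counts were 0 of the 35 in SP (all genes 6.36%) and 0 of the 35 in non-SP cells (all genes 5.11%). The median change (anti-EpCAM minus untreated) in SP cells was -0.10 over the 35 genes, and 31 were below 0. The median over all genes was -0.12, with 78.4% below 0, so the 35 genes lay 0.02 above it. Without SP anti-EpCAM replicate 2 the median of the 35 genes in SP cells was 0.11. In non-SP cells limma called 0 of the 35 and 0 of all genes (0.0%), with 0 of the 35 and 585 of all genes (3.22%) at an unadjusted p under 0.05. There the median was -0.11 over the 35 genes, 26 of them below 0, and -0.10 over all genes, with 70.9% below 0, a gap of -0.01. These directions depend on the scaling: after centring each array on its median, the median of the 35 genes was 0.09 in SP and 0.04 in non-SP cells, and after a further quantile normalisation -0.03 and 0.01.

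E2f1 was the 1 gene of the 35 whose antibody-treated SP arrays all lay below the untreated SP arrays (all genes 8.04%), and in non-SP cells E2f1 and Ccne2 did so (2 of 35; all genes 6.62%). None lay above (all genes 0.434% in SP and 1.19% in non-SP cells). E2f1 was also the 1 gene of the 35 for which all 6 treated arrays lay below all 6 untreated arrays, which held for 165 of all genes (0.907%). Its mean was 8.36 ± 0.13 in SP anti-EpCAM and 8.59 ± 0.11 in SP untreated cells, and 8.39 ± 0.07 in non-SP anti-EpCAM and 8.60 ± 0.06 in non-SP untreated cells (SD, n = 3 each). The limma difference was -0.22 ± 0.14 in SP cells (95% interval -0.53 to 0.08) and -0.21 ± 0.14 in non-SP cells (-0.52 to 0.09), with adjusted p of 1.0 and 0.988. Once each array was centred on its median, these differences were -0.03 and -0.07, and after a further quantile normalisation -0.14 and -0.04. Its other 2 probe sets differed by -0.13 and -0.20 in SP and by -0.28 and -0.32 in non-SP cells. In SP cells the other genes at the ends by moderated t were Mcm2 (0.12 ± 0.18), Chaf1b (0.09 ± 0.19) and Tyms (-0.32 ± 0.30). In non-SP cells they were Ccne1 (0.26 ± 0.18), Fen1 (0.15 ± 0.22) and Ccne2 (-0.68 ± 0.40, 95% interval -1.56 to 0.19). Ccne1 read from its other probe set gave -0.20 in non-SP cells, and Mcm2 in SP cells gave -0.02 without both arrays of untreated pair 1.

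Whether the SP to non-SP difference depended on the antibody was tested as an interaction. Limma called 0 of the 35 and 0 of all genes (0.0%), and an unadjusted p under 0.05 was met by 0 of the 35 and by 43 of all genes (0.236%), or with the pair as a block by 0 of the 35 (all genes 5.51%). The median interaction (the difference with the antibody minus that without it) was -0.01 over the 35 genes, 19 of them below 0, and -0.03 over all genes, with 56.4% below 0. The ends by moderated t were Mcm2 at 0.30 ± 0.25 and Ccne2 at 0.52 ± 0.57, and Fen1 at -0.26 ± 0.32 and Ccne1 at -0.26 ± 0.25. Ccne1 gave 0.20 from its other probe set. Without SP anti-EpCAM replicate 2 the median of the 35 genes was 0.21. The intervals here reached 0.69 log2 units either way. They lay within 2-fold for 28 of the 35 genes and for 13073 of all 18194.

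Different probe sets of the same gene did not always give the same difference, and the gaps between them were widest in anti-EpCAM pair 2. Counting probe sets with a mean of at least 7, a bound chosen after the data were seen, 21 of the 35 genes had more than 1. The median gap between a gene's probe sets was 0.51 log2 units in anti-EpCAM pair 2 and 0.11 to 0.18 in the other 5 pairs. In that pair the gap exceeded 0.5 for 11 of the 21 genes (52.4%), against 36.4% of 3463 genes overall. Opposite signs were found for 8 of the 21 genes in that pair (38.1%, against 42.9% of the 3463 genes). They were found for 13 in anti-EpCAM pair 3 (61.9%, against 53.3%) and 10 in untreated pair 2 (47.6%, against 45.9%), where differences were near 0. In anti-EpCAM pair 1 and untreated pair 1 they were found for 2 each (9.52%, against 44.5% and 36.9%). In untreated pair 3 they were found for 6 (28.6%, against 39.4%). In anti-EpCAM pair 2, Mcm4 was lower in SP by 0.49 from the probe set used here and higher by 1.04 from the other. Prim1 gave -0.48 and 0.34, Mcm6 gave -0.09 and 0.72, and Mcm5 gave -0.38 and -0.96. In untreated pair 1 the same probe sets shared their sign, at -0.20 and -0.58 for Mcm4, -0.36 and -0.53 for Prim1, and -0.25 and -0.38 for Mcm6. The 43 other probe sets of the listed genes had medians of 0.10, -0.25 and 0.00 in the anti-EpCAM pairs and -0.29, -0.01 and 0.09 in the untreated pairs. The medians of the probe sets used here had the same signs in the pairs with the larger differences. These medians were 0.15 and -0.31 in anti-EpCAM pairs 1 and 2 and -0.33 and 0.10 in untreated pairs 1 and 3. Of 258 single differences from the other probe sets, however, only 157 (60.9%) had the sign of the probe set used for the gene.

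**Figure D5:**
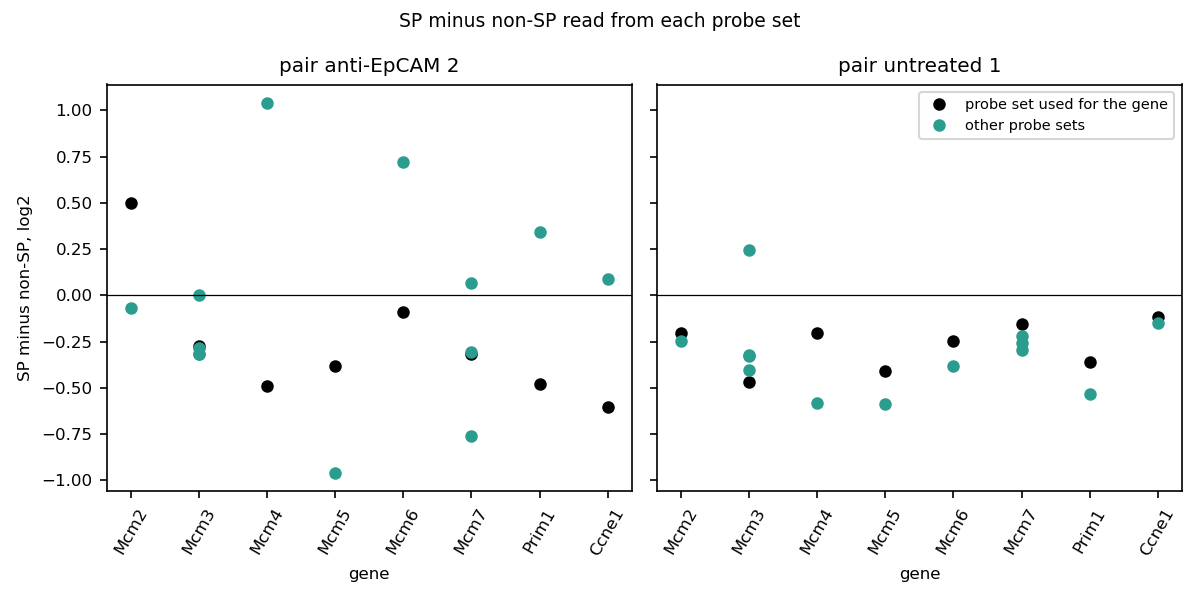
SP minus non-SP in log2 units (vertical axis) for 8 genes (horizontal axis), in anti-EpCAM pair 2 (left) and untreated pair 1 (right). Each probe set with a mean of at least 7 is shown, and dimmer ones are left out. Black points are the probe sets that stand for the genes here and green points their other probe sets. The probe sets shown lie on both sides of 0 for Mcm2, Mcm4, Mcm6, Mcm7, Prim1 and Ccne1 in anti-EpCAM pair 2. In untreated pair 1 they do so only for Mcm3 among these 8.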

How the data were processed

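The deposited table holds log2 values of 12 arrays in 4 groups of 3, made by RMA per the submitters' processing notes. Neither the program nor a version is given in the sources used here. Array medians differed (5.72 to 6.06), and what scaling, if any, followed RMA is not known. Of 45101 probe sets, the platform annotation gives 34958 a single gene symbol, 932 several and 9211 none. A gene was read from the single-symbol probe set with the highest mean, giving 18194 genes without a level filter. Names in x_at or s_at, which mark probe sets that can bind related transcripts, belong to 1568 of these probe sets and to those of 9 of the 35 replication genes (Mcm2, Mcm3, Mcm5, Mcm7, Gins2, Ccne1, Pold1, Fen1 and Rrm2). Precision is limited by the number of arrays.

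Limma (version 3.58.1, under R 4.3.3) was fitted to group means with lmFit and eBayes, leaving 8 residual degrees of freedom; tests were two-sided and adjusted by Benjamini-Hochberg over all genes, with a threshold of 0.05. The contrasts were SP against non-SP with the antibody, without it and averaged, anti-EpCAM against untreated in SP and in non-SP cells, and the interaction. The steps were tested on simulated data. Pair differences, permutation tests (scipy 1.17.1) and figures (matplotlib 3.10.9) were made in Python 3.11.15 with pandas 2.3.3 and numpy 2.4.6. As a check of the pairing, each array's deviation from its group mean was correlated across genes between SP and non-SP arrays of the same number: 0.75, 0.62 and 0.56 with the antibody and 0.66, 0.84 and 0.55 without it, so these numbers pair the fractions. Between treatments the same measure gave -0.38 to -0.01, so they do not pair the treatments.

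The 35 genes, the other replication list (54 of 58 measured), the G2/M list (20 of 21) and the marker lists were chosen with earlier results of these data known. By rule, values on every array are given for 13 of the 35 genes (Mcm2, Mcm5, Cdc6, Cdt1, Orc1, E2f1, Ccne1, Ccne2, Pcna, Rrm2, Tyms, Slbp and Uhrf1) and, per contrast, for the 2 with the highest and the 2 with the lowest moderated t. Alternatives were another scaling, another choice of probe set, a level filter, a replicate block, eBayes with trend, each array left out and, added after the data were seen, both arrays of anti-EpCAM pair 2 or untreated pair 1 left out.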

Additional observations from a re-analysis of the deposited data

How the results depend on the processing

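Under each alternative run, limma called 0 of the 35 genes and 0 of all genes in every contrast, and the lowest adjusted p of any of the 35 was 0.577. With the pair as a replicate block, the medians of the 35 genes were -0.07 with the antibody, -0.04 without it, -0.06 over both treatments and -0.01 for the interaction, as without the block, and no call changed; nor did one with the replicate number as a replicate block in the antibody contrasts.

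Leaving out 1 array moved the median of the 35 genes between -0.20 and 0.16 for SP minus non-SP with the antibody, -0.21 and 0.03 without it, -0.14 and 0.04 over both, -0.26 and 0.11 for the antibody in SP, -0.20 and -0.0023 in non-SP cells, and -0.16 and 0.21 for the interaction. Without both arrays of anti-EpCAM pair 2 the antibody medians were 0.11 in SP and -0.0023 in non-SP cells, and without those of untreated pair 1 the SP median was -0.20. Single genes turned sign as arrays were left out in SP minus non-SP for Ung (-0.26 to 0.33) and Mcm4 (-0.16 to 0.16) without the antibody and Ung over both treatments (-0.0068 to 0.37), and in the antibody contrasts for Mcm2 (-0.0211 to 0.25) and Chaf1b (-0.0216 to 0.25) in SP and Fen1 (-0.0002 to 0.31) in non-SP cells. The mean of all probe sets turned Mcm4 without the antibody to -0.086. Without x_at and s_at probe sets, SP minus non-SP with the antibody turned to -0.0515 for Mcm2 and 0.10 for Ccne1, and Ccne1 turned to 0.0013 over both treatments, -0.20 for the antibody in non-SP cells and 0.20 for the interaction. Without both arrays of untreated pair 1, Mcm2 turned to -0.0211 for the antibody in SP cells. The cause was not tested. The other values of single genes kept their direction, 279 with 1 array left out and 209 under the other alternatives. The median 95% interval of the 35 genes reached 0.49 log2 units either way without a block and, with the pair as a replicate block, 0.31 for SP minus non-SP under 1 treatment, 0.22 over both and 0.44 for the interaction.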

Other observations

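Of the 54 other replication genes, 1 had an unadjusted p under 0.05 in each antibody contrast (1.85%), fewer than the 4.59% of all genes in SP and 3.22% in non-SP cells. Orc3, an origin recognition subunit, differed by -0.36 ± 0.14 between anti-EpCAM and untreated SP cells, and Brip1, a helicase of DNA crosslink repair, by -0.67 ± 0.28 in non-SP cells (limma log2 difference ± SE, n = 3 against 3). Neither passed the adjustment over all genes (1.0 for Orc3 and 0.988 for Brip1). The SP minus non-SP difference of Brip1 was 0.32 ± 0.28 with the antibody and -0.30 ± 0.28 without it, and its interaction of 0.62 ± 0.39 was the highest by moderated t on that list (limma adjusted p = 1.0).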
